A study of Mus musculus with 24 samples.

Results

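The genes of decidualization and of the uterine stroma were read across 24 mouse arrays. The list held 31 genes, chosen by name for their role in the decidua or uterus. A gene was measured where a probe set of the deposited value table named it and no other gene. That was the case for 29 of the 31, each with 1 probe set, among 19505 named genes in all. Ptgs1 and Il11ra1, which no probe set named alone, were not analysed here. By role the 29 fell into 7 hormone receptors and transcription factors, 7 signalling genes, 5 genes of steroid and prostanoid metabolism, 7 structural and matrix genes and 3 other decidual markers.

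The samples came from ICR-CD1 mice, an outbred stock, and were grandoffspring of obese males, labelled SL, or of control males. The 6 groups of 4 arrays each were ED7.5 SL and ED7.5 control, labelled as whole embryos of embryonic day 7.5, ED14.5 SL and ED14.5 control, labelled as whole embryos of embryonic day 14.5, and PD7.5 SL and PD7.5 control, livers of pups at postnatal day 7.5. All groups carried the same strain label and no further genotype or treatment was given. The sources used here do not give what SL abbreviates, whether animals were pooled, or which litter or grandfather stands behind an array, so p-values measure only the spread between these samples. All values are deposited log2 values, 1 unit being a doubling, and they were compared only within a gene.

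Decidualization is the change of uterine stromal fibroblasts into large secretory cells that surround the implanting embryo. In the mouse it starts with implantation and is driven by progesterone acting through its receptor, by hedgehog signals from the epithelium and by BMP and WNT ligands made in the stroma. The resulting decidua is maternal tissue, made of stromal cells with blood vessels and uterine natural killer cells, and it gives way as the placenta grows.

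The arrays labelled as ED7.5 whole embryo carried decidual transcripts throughout and epiblast transcripts on some arrays at most. Of 16 measured decidual secretory genes, 14 lay above background on every ED7.5 SL array and 14 on every ED7.5 control array, background being the level under which 75% of an array's 5222 negative-control features lay. Of all named genes 55.8% in ED7.5 SL and 48.9% in ED7.5 control did so. In each ED14.5 and liver group 7 of the 16 were above it on every array. Igfbp1, above it on no ED7.5 array, was among the 7 each time. Of 12 epiblast and primitive streak genes, 0 lay above background on every array in either ED7.5 group, and 10 in ED7.5 SL and 8 in ED7.5 control lay above it on none. The epiblast gene detected most often was Dnmt3b, on 3 of 4 arrays in each arm, at 6.08 ± 0.52 in SL and 6.20 ± 0.32 in control. Of 10 measured trophoblast genes, 3 (Hand1, Tfap2c and Peg10) lay above background on every array of both ED7.5 groups. The list mean of the trophoblast genes spread from 4.96 to 6.07 over the SL arrays and from 5.25 to 6.19 over the control arrays. At ED14.5 all 12 hepatocyte genes and all 8 measured erythroid genes were above background on every array of both arms, and at PD7.5 the same held for the hepatocyte genes. Fewer cells of a type and less RNA per cell cannot be told apart in such whole samples, and between the ages tissue and age cannot be told apart.

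**Figure D1:**
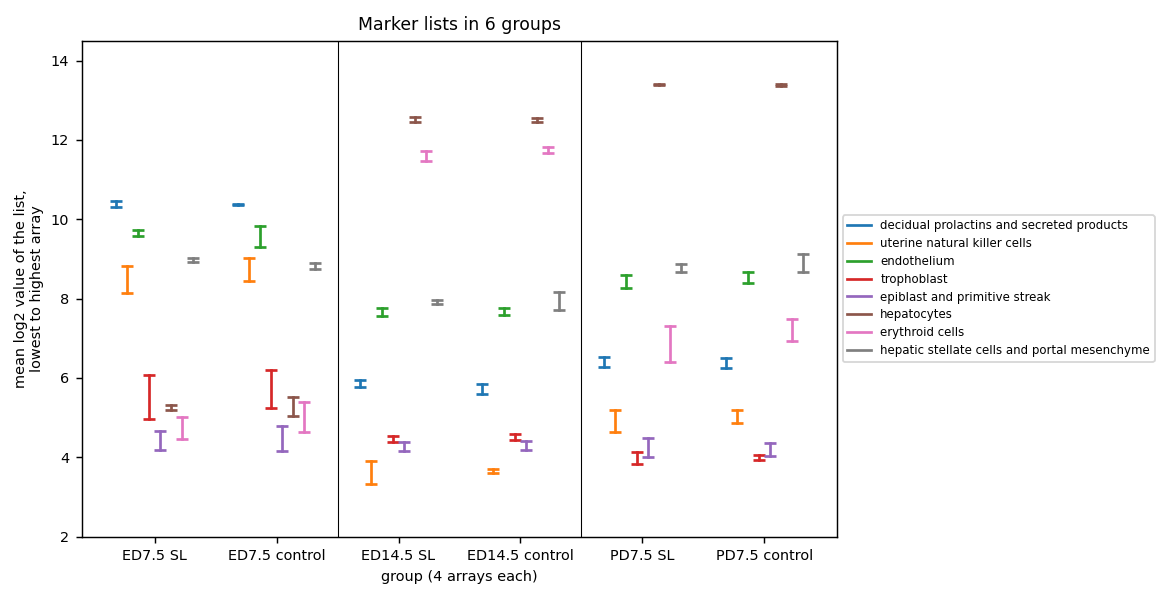
Mean log2 value of 8 marker lists (vertical axis) in 6 groups (horizontal axis), drawn from the lowest to the highest of 4 arrays. The decidual list lies between 10.30 and 10.45 on the ED7.5 SL arrays and between 10.37 and 10.39 on the ED7.5 control arrays, and at or under 6.52 in the other groups, where the hepatocyte list lies at 12.46 or above.

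Arrays of 1 group correlated across genes with r between 0.981 and 0.993, and no pair held identical values. The second ED7.5 control array stood apart. Its background was 6.53, against 5.05 to 5.77 on the other ED7.5 control arrays and 5.50 to 5.64 on the SL arrays, and 49.0% of its genes lay above it. Without it the comparison of ED14.5 with ED7.5 in the control arm below again gave 26 genes lower and 1 higher of the 29, and that of liver with ED7.5 again 24 lower and 2 higher. The comparisons of SL with control at ED7.5 are given with and without it. The first ED14.5 control array also had a high background, 6.512 against 5.975 to 6.035 on the other ED14.5 control arrays. Of its genes 48.3% lay above that level. Il15, Cebpb and Cryab missed background on that array alone in its group, and its background enters the lower bounds of that group. With any 1 array left out, 27 of the 29 genes again passed between ED14.5 and ED7.5 in control.

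At ED7.5, 28 of the 29 genes lay above background on every SL array and 26 on every control array. Hsd11b2 and Ptgis missed it on 1 control array each. Cnr1, a cannabinoid receptor, was below background on all 24 arrays of the series. At ED14.5, 10 of the 29 were above background on every SL array and 9 on every control array, while 13 in SL and 16 in control were above it on none. In the PD7.5 livers 14 were above it on every SL array and 15 on every control array. For comparison, between 47.8% and 55.8% of all named genes were above background on every array of a group.

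**Figure D2:**
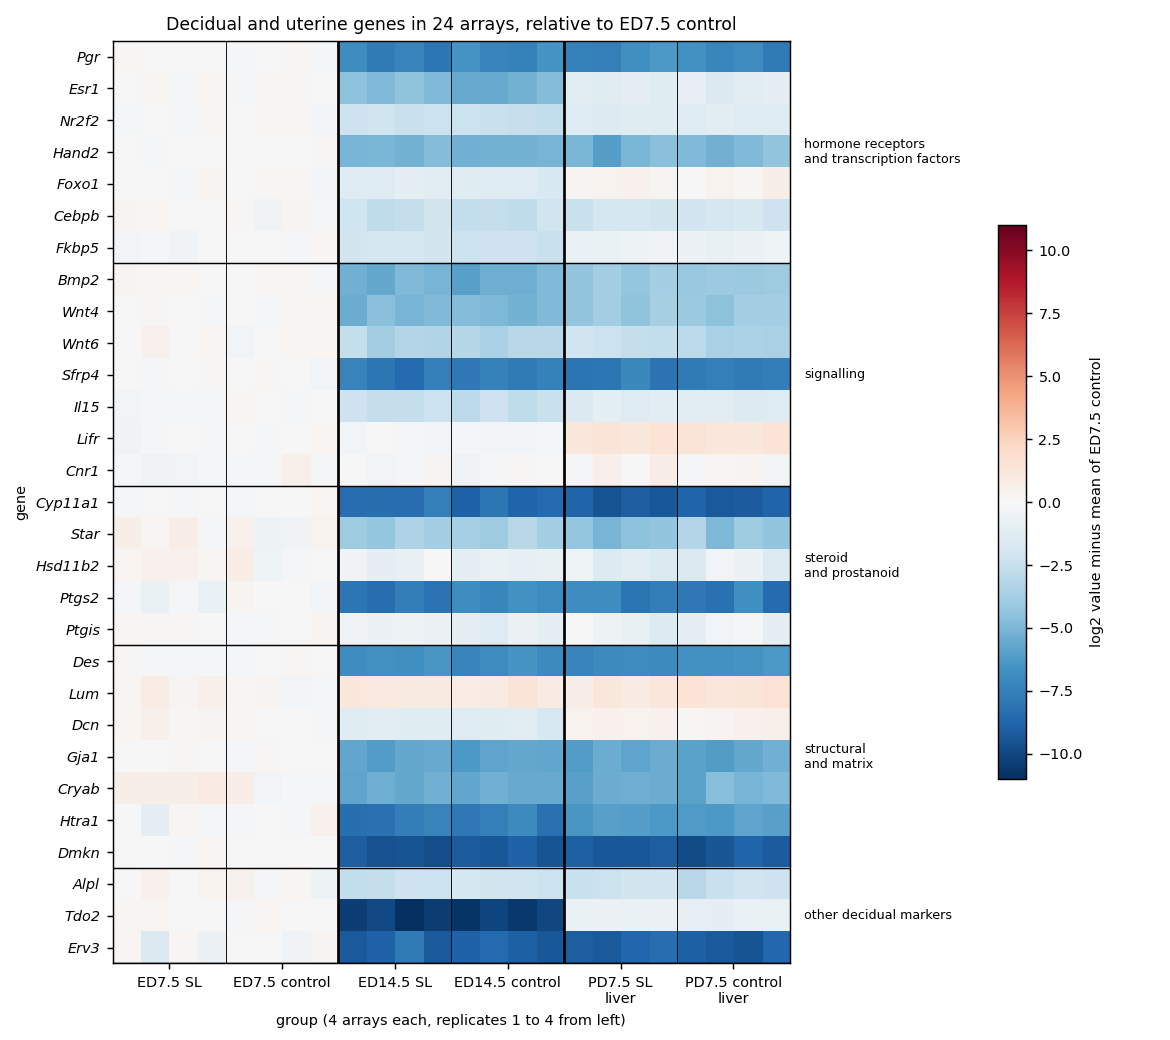
Log2 value of each of 29 genes (rows, by role) on each of 24 arrays (columns, by group), minus the gene's mean over the ED7.5 control arrays. Blue marks lower and red higher values. Most ED7.5 cells are near white, most rows are blue at ED14.5 and in liver, and Lifr and Lum are red in liver.

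The first question was whether the genes differed between ages within each arm. In the SL arm 26 of the 29 were lower and 1 was higher at ED14.5 than at ED7.5 at an adjusted p below 0.05 (limma, 4 arrays each), where 27.1% of all genes were lower and 26.4% higher. In the control arm, which used other samples, again 26 were lower and 1 was higher, where 26.3% of all genes were lower and 25.6% higher. The same 26 genes were lower in both arms, the higher gene was Lum in both, and Lifr and Cnr1 passed in neither. The median difference of the 29 was -4.72 in SL and -4.96 in control, and -3.88 and -3.81 with dim genes at their bounds, against 0.01 and 0.03 over all genes. The genes were listed because they are known in the decidua, and the count describes the list. The calls of all 29 were the same in both arms under every alternative tried, except that Cnr1 in both arms, and Hsd11b2 and Ptgis in the control arm, were not tested when dim genes were left out.

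Between liver and ED7.5, 24 of the 29 were lower and 3 higher in the SL arm, where 30.2% of all genes were lower and 21.2% higher. In the control arm 24 were lower and 2 higher, where 29.7% of all genes were lower and 20.2% higher. The 24 lower genes were the same in both arms. Lifr and Lum were higher in both, and the third in SL was Cnr1, below background on all arrays compared. Foxo1 and Dcn passed in neither arm. Within an arm this comparison shares its ED7.5 arrays with the comparison above.

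Among the hormone receptors and transcription factors, all 7 were above background on all 8 ED7.5 arrays and all 7 were lower at ED14.5 in both arms. Pgr, the progesterone receptor, read 11.08, 11.04, 11 and 10.99 on the ED7.5 SL arrays and 10.84, 11.03, 11.12 and 10.87 on the ED7.5 control arrays. At ED14.5 it read 4.17, 3.31, 3.71 and 2.99 in SL and 4.47, 3.74, 3.54 and 4.49 in control, below background on every array. The groups of the 2 ages were far apart, and the level was at least 30.6-fold lower at ED14.5 in SL (adjusted p = 3.75e-09) and at least 28.5-fold lower in control (adjusted p = 2.85e-09). Such bounds compare the ED7.5 mean with the background of the dimmer arrays, since a level under background is not measured. In liver Pgr read 3.41 to 4.69 in SL and 3.20 to 4.30 in control, again below background throughout.

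Esr1, the alpha oestrogen receptor, followed another course. It read 10.0, 10.24, 9.93 and 10.21 on the ED7.5 SL arrays and 9.83, 10.11, 10.11 and 10.03 on the control arrays. At ED14.5 it read 5.54, 5.20, 5.62 and 5.13 in SL and 4.45, 4.50, 4.85 and 5.24 in control, below background on all 8 arrays. The level at ED14.5 was at least 16.0-fold lower in SL and at least 14.8-fold lower in control. In liver it was back above background on all 8 arrays, at 8.76 ± 0.12 in SL and 8.83 ± 0.30 in control (SD, n = 4 each), 1.33 ± 0.12 (SE) lower than at ED7.5 in SL and 1.19 ± 0.16 lower in control.

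Hand2, a transcription factor of the uterine stroma, had the narrowest values of the list at ED7.5, with a range of 0.20 over the 8 arrays, where the median gene ranged over 0.63. It averaged 11.81 ± 0.03 in ED7.5 SL and 11.88 ± 0.08 in ED7.5 control, 6.84 ± 0.18 in ED14.5 SL and 6.68 ± 0.06 in ED14.5 control, and 6.70 ± 0.62 in liver SL and 7.06 ± 0.38 in liver control. Hand2 was thus 31.2-fold lower at ED14.5 than at ED7.5 in SL and 36.7-fold lower in control. Nr2f2, a nuclear receptor of the stroma, was above background on all 24 arrays and fell by less, with ED14.5 values 4.75-fold lower in SL and 5.65-fold lower in control. Foxo1, a forkhead factor, was 2.46-fold lower at ED14.5 in SL and 2.74-fold lower in control. In liver Foxo1 was at 9.20 ± 0.07 in SL and 9.18 ± 0.26 in control, against 8.88 ± 0.20 and 8.85 ± 0.20 at ED7.5, and the difference did not pass (adjusted p = 0.0616 in SL and 0.123 in control). Cebpb, a leucine zipper factor needed for decidualization in the mouse, was 5.81-fold lower at ED14.5 in SL and also lower in control. In each ED14.5 group 3 of 4 arrays were above background. No fold is given in control because its ED14.5 mean of 6.40 lay among the array backgrounds.

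Fkbp5, a co-chaperone of steroid receptors, stayed above background everywhere. It read 11.53, 11.64, 11.48 and 11.80 in ED7.5 SL and 11.86, 11.81, 11.62 and 12.03 in ED7.5 control. At ED14.5 it read 9.80, 9.89, 9.91 and 9.82 in SL and 9.47, 9.53, 9.52 and 9.37 in control. The SL arrays thus overlapped the control arrays at ED7.5, lying lower on average, and all lay above them at ED14.5. Relative to ED7.5, Fkbp5 at ED14.5 was 3.38-fold lower in SL and 5.12-fold lower in control, and in liver 1.30-fold lower in SL and 1.56-fold lower in control.

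**Figure D3:**
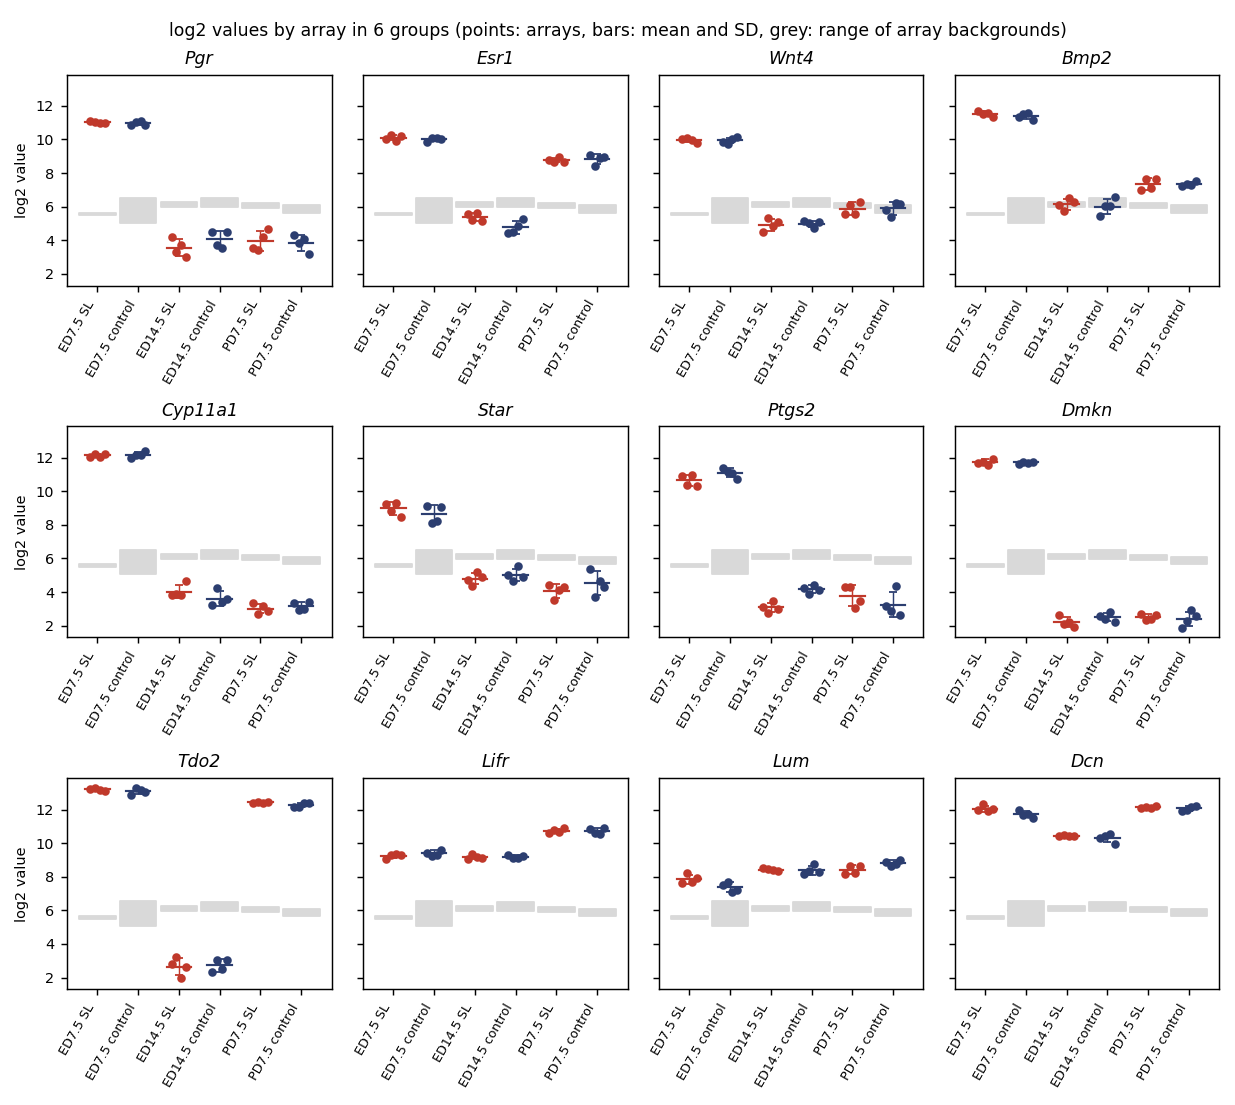
Log2 values (vertical axis) of 12 genes in 6 groups (horizontal axis), SL in red and control in blue, with points for arrays, bars for mean and SD and grey bands for the range of array backgrounds. Pgr, Cyp11a1, Star, Ptgs2 and Dmkn lie above the bands at ED7.5 only, Esr1 and Tdo2 also in liver, and Lifr, Lum and Dcn in every group.

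The signalling genes were mixed. Of the 7 measured, 5 were lower at ED14.5 in both arms, and Lifr and Cnr1 passed in neither. Bmp2, the ligand that the mouse stroma needs to decidualize, averaged 11.52 ± 0.15 in ED7.5 SL and 11.39 ± 0.20 in ED7.5 control. At ED14.5 it averaged 6.14 ± 0.32 in SL and 6.00 ± 0.46 in control, above background on 2 of 4 arrays in each, and in liver 7.35 ± 0.34 in SL and 7.35 ± 0.11 in control, above it on all 8. The ED14.5 level was lower than at ED7.5 in both arms (adjusted p = 4.16e-09 in SL and 1.26e-08 in control), with no fold given because its means lay at background. The liver level was 17.9-fold lower than at ED7.5 in SL and 16.4-fold lower in control. Wnt4, a WNT ligand known to act downstream of Bmp2 in mouse stroma, averaged 9.97 ± 0.12 in ED7.5 SL and 9.94 ± 0.17 in ED7.5 control. It was below background on every ED14.5 array, at 4.92 ± 0.36 in SL and 4.99 ± 0.18 in control, and in liver averaged 5.89 ± 0.38 in SL, above it on 1 array, and 5.90 ± 0.37 in control, above it on 2. At ED14.5 it was at least 14.8-fold lower than at ED7.5 in SL and at least 14-fold lower in control.

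Wnt6, a second WNT ligand of the stroma, read 7.45, 7.96, 7.39 and 7.71 in ED7.5 SL and 7.14, 7.38, 7.64 and 7.69 in ED7.5 control, and it was below background on all 16 arrays of the other groups. Sfrp4, a secreted WNT antagonist, read 11.57, 11.43, 11.47 and 11.69 in ED7.5 SL and 11.57, 11.71, 11.63 and 11.29 in ED7.5 control. At ED14.5 Sfrp4 read 4.24, 3.62, 3.04 and 4.02 in SL and 3.68, 4.12, 3.74 and 4.09 in control, and in liver 3.41 to 4.46 in SL and 3.73 to 4.02 in control. The ED14.5 level of Sfrp4 was at least 43.6-fold lower in SL (adjusted p = 3.83e-09) and at least 42.8-fold lower in control (adjusted p = 2.25e-10).

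Il15, a cytokine known for its action on uterine natural killer cells, read 8.58, 8.64, 8.74 and 8.71 in ED7.5 SL and 9.12, 8.82, 8.78 and 8.87 in ED7.5 control. At ED14.5 it averaged 6.45 ± 0.19 in SL and 6.31 ± 0.26 in control, and in liver 7.56 ± 0.22 in SL and 7.54 ± 0.13 in control. Il15 was 4.66-fold lower at ED14.5 in SL and also lower in control, where 3 of 4 arrays measured it. No fold is given in control because its ED14.5 mean lay among the array backgrounds. Markers of those cells lay beside it: 8 of 10 were above background on every array of each ED7.5 group and 0 of 10 in each ED14.5 group, where Prf1, Gzma, Gzmb and Gzmc were below background on all arrays. Their list mean lay between 8.15 and 8.82 on the ED7.5 SL arrays and between 8.43 and 9.03 on the ED7.5 control arrays. At ED14.5 it lay between 3.33 and 3.91 in SL and between 3.60 and 3.70 in control, and in liver between 4.64 and 5.18 in SL and between 4.87 and 5.18 in control. Whether the number of these cells moved Il15 was not tested. Lifr, the receptor of leukaemia inhibitory factor, averaged 9.23 ± 0.13 in ED7.5 SL, 9.40 ± 0.16 in ED7.5 control, 9.18 ± 0.12 in ED14.5 SL and 9.19 ± 0.08 in ED14.5 control. In liver it was 1.5 ± 0.12 (SE) higher than at ED7.5 in SL and 1.32 ± 0.14 higher in control.

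The genes of steroid and prostanoid metabolism were all lower at ED14.5 in both arms, 5 of 5. Cyp11a1, the side-chain cleavage enzyme that opens steroid synthesis, read 12.05, 12.23, 12.05 and 12.20 in ED7.5 SL and 12.01, 12.17, 12.14 and 12.39 in ED7.5 control. On the ED14.5 arrays Cyp11a1 read 3.82, 3.86, 3.80 and 4.64 in SL and 3.24, 4.23, 3.40 and 3.59 in control, and the liver arrays 2.69 to 3.33 in SL and 2.95 to 3.41 in control. It was at least 65.9-fold lower at ED14.5 in SL (adjusted p = 9.66e-10) and at least 66.1-fold lower in control (adjusted p = 5.23e-10). Trophoblast giant cells of the mouse are also known to express Cyp11a1. Beside the 3 trophoblast genes above background on every ED7.5 array, Tpbpa was above it on 3 arrays of each ED7.5 group. Prl2c2 was above it on 1 SL and 3 control arrays at ED7.5. The part of trophoblast cells in the level of Cyp11a1 was not tested.

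Star, which brings cholesterol to the inner mitochondrial membrane, varied widely at ED7.5. It read 9.27, 8.85, 9.33 and 8.45 in SL and 9.13, 8.10, 8.25 and 9.04 in control, a range of 1.23 in which the arms overlapped. The ED14.5 arrays gave 4.70, 4.39, 5.22 and 4.91 in SL and 4.99, 4.68, 5.54 and 4.92 in control, and the liver arrays 4.41, 3.5, 4.11 and 4.33 in SL and 5.4, 3.73, 4.68 and 4.29 in control, all below background. At ED14.5 Star was at least 7.38-fold lower in SL and at least 5.66-fold lower in control.

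Ptgs2, the inducible cyclooxygenase, read 10.88, 10.40, 10.99 and 10.34 in ED7.5 SL and 11.41, 11.13, 11.08 and 10.76 in ED7.5 control. On the ED14.5 arrays Ptgs2 read 3.14, 2.75, 3.45 and 3.01 in SL and 4.25, 3.91, 4.45 and 4.15 in control, and in liver 3.05 to 4.30 in SL and 2.64 to 4.36 in control, all below background. It was at least 23.6-fold lower at ED14.5 in SL and at least 31.2-fold lower in control. Ptgis, prostacyclin synthase, and Hsd11b2, which inactivates corticosterone, lay near background in every group. At ED7.5 Ptgis averaged 6.77 ± 0.11 in SL and 6.66 ± 0.22 in control and Hsd11b2 6.59 ± 0.14 in SL and 6.23 ± 0.50 in control.

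Of the 7 structural and matrix genes, 6 were lower at ED14.5 in both arms and Lum was higher. Dmkn, a secreted protein of epithelia also known in the decidua, read 11.67, 11.73, 11.56 and 11.95 in ED7.5 SL and 11.65, 11.76, 11.70 and 11.75 in ED7.5 control. Its ED14.5 values were 2.63, 2.13, 2.22 and 1.95 in SL and 2.60, 2.40, 2.79 and 2.23 in control, and its liver values 2.36 to 2.70 in SL and 1.87 to 2.91 in control, all below background. It was at least 49.7-fold lower at ED14.5 in SL (adjusted p = 2.21e-10) and at least 48.1-fold lower in control (adjusted p = 6.4e-11).

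Htra1, a secreted serine protease, read 12.55, 11.52, 12.73 and 12.30 in ED7.5 SL and 12.30, 12.55, 12.34 and 12.97 in ED7.5 control. Its values at ED14.5 were 4.22, 4.33, 4.91 and 5.23 in SL and 4.67, 5.01, 5.56 and 4.37 in control, at least 72.7-fold lower in SL and at least 85.0-fold lower in control. In liver it was above background on all 8 arrays, between 6.12 and 6.59 in SL and between 6.19 and 6.78 in control.

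Des, the intermediate filament protein desmin, read 12.60, 12.37, 12.35 and 12.37 in ED7.5 SL and 12.38, 12.54, 12.57 and 12.39 in ED7.5 control, a range of 0.25. At ED14.5 it was above background on 1 of 4 SL arrays and on none of the control arrays, and in liver on none of the SL arrays and on 2 of the control arrays. The ED14.5 level was at least 80.9-fold lower than at ED7.5 in control, and also lower in SL (adjusted p = 2.89e-10), where its mean of 5.79 ± 0.18 lay under the backgrounds of 5.99 to 6.29. Gja1, the main gap junction protein of the decidua, was above background on all 24 arrays and was 56.2-fold lower at ED14.5 in SL and 57.9-fold lower in control. Cryab, a small heat shock protein, read 12.37, 12.41, 12.40 and 12.66 in ED7.5 SL and 12.46, 11.45, 11.55 and 11.57 in ED7.5 control. It averaged 6.22 ± 0.24 in ED14.5 SL, 6.23 ± 0.20 in ED14.5 control, 6.19 ± 0.27 in liver SL and 6.62 ± 0.53 in liver control. Cryab was lower at ED14.5 than at ED7.5 in both arms, with 3 of 4 arrays above background in each ED14.5 group. No fold is given because its ED14.5 means lay among the array backgrounds. Its difference between the ages, on the log2 scale, differed between the arms by 0.71, which as an interaction did not pass (adjusted p = 0.684).

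The small leucine-rich proteoglycans of the matrix set themselves apart from these. Dcn read 11.96, 12.30, 11.91 and 12.01 in ED7.5 SL and 11.96, 11.70, 11.74 and 11.49 in ED7.5 control. It was above background on all 24 arrays and only 3.06-fold lower at ED14.5 in SL and 2.68-fold lower in control. In liver Dcn averaged 12.13 ± 0.05 in SL and 12.07 ± 0.16 in control, and its difference from ED7.5 passed in neither arm (adjusted p = 0.601 in SL and 0.0623 in control). Lum read 7.62, 8.21, 7.69 and 7.93 in ED7.5 SL and 7.52, 7.71, 7.11 and 7.21 in ED7.5 control.

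At ED14.5 Lum read 8.52, 8.44, 8.38 and 8.36 in SL and 8.18, 8.33, 8.77 and 8.29 in control, all above the ED7.5 arrays of the same arm. The difference was 0.56 ± 0.14 (SE) in SL (adjusted p = 0.00565) and 1.01 ± 0.17 in control (adjusted p = 0.000628). In liver Lum was 0.57 ± 0.18 higher than at ED7.5 in SL (adjusted p = 0.021) and 1.42 ± 0.16 higher in control (adjusted p = 2.94e-05). The SL call in liver was lost without ED7.5 SL replicate 1 or 3, or PD7.5 SL replicate 2 or 4 (adjusted p from 0.055 to 0.061). Dcn, Lum, Des and Hand2 also mark hepatic stellate cells and portal mesenchyme. Of 14 genes of that list, the list mean ran from 8.93 to 9.03 in ED7.5 SL, 8.75 to 8.90 in ED7.5 control, 7.86 to 7.97 in ED14.5 SL, 7.70 to 8.16 in ED14.5 control, 8.66 to 8.88 in PD7.5 SL and 8.68 to 9.13 in PD7.5 control. The list includes Dcn, Lum, Des and Hand2 themselves. In each ED7.5 group 11 of the 14 were above background on every array. Colec11 and Lhx2 were above it on no ED7.5 array and on every liver array. The part of stellate cells and portal mesenchyme in the levels of Dcn and Lum at ED14.5 and in liver was not tested.

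All 3 of the other decidual markers were lower at ED14.5 in both arms. Tdo2 encodes tryptophan dioxygenase, a liver enzyme that is also a decidual transcript in rodents. It read 13.21, 13.29, 13.17 and 13.11 in ED7.5 SL and 12.89, 13.29, 13.16 and 13.06 in ED7.5 control. The ED14.5 arrays read 2.78, 3.21, 1.98 and 2.63 in SL and 2.31, 3.04, 2.48 and 3.06 in control, at least 137-fold lower in SL (adjusted p = 7.06e-10) and at least 125-fold lower in control (adjusted p = 1.82e-10).

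In liver Tdo2 was high again, at 12.41, 12.47, 12.40 and 12.46 in SL and 12.18, 12.15, 12.41 and 12.37 in control. It remained below its ED7.5 level by 0.76 ± 0.10 (SE) in SL and 0.82 ± 0.13 in control. All 12 hepatocyte genes were above background at ED14.5, while Tdo2 was below it on all 8 ED14.5 arrays. Erv3, annotated as an endogenous retroviral sequence, read 12.41, 10.65, 12.42 and 11.56 in ED7.5 SL and 12.29, 12.29, 11.80 and 12.52 in ED7.5 control. At ED14.5 Erv3 read 2.97, 3.31, 4.43 and 2.98 in SL and 3.29, 3.64, 3.28 and 2.93 in control, and in liver 3.01 to 3.82 in SL and 2.72 to 3.63 in control. It was at least 50.9-fold lower at ED14.5 in SL and at least 68.3-fold lower in control. Alpl, an alkaline phosphatase long used to stain the decidua, was above background everywhere and was 6.35-fold lower at ED14.5 in SL and 4.41-fold lower in control.

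Since 26 genes were lower together at ED14.5, their promoters were read for short motifs. The windows were the 250 bases before a gene's start in RefSeq on GRCm38.p6, and 20 of the 29 genes had at least 1. A gene with several listed starts had several windows, and it was counted as holding a motif if any of them did. Windows of 3 genes are shown because they belong to genes that were high at ED7.5 and below background at ED14.5, and because they hold the C/EBP motif TTGCNNAA or the nuclear receptor half-site AGGTCA on either strand, given in capitals. Cyp11a1 lies at chr9:58014702-58014951 on the plus strand, before the second of its listed starts, Ptgs2 at chr1:150099781-150100030 on the plus strand and Tdo2 at chr3:81975729-81975978 on the minus strand, and each is printed 5′ to 3′ along its gene.
Cyp11a1: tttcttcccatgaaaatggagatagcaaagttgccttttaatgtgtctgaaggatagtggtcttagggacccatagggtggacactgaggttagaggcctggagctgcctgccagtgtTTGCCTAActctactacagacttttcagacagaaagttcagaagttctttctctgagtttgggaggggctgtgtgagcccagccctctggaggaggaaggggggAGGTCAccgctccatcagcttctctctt
Ptgs2: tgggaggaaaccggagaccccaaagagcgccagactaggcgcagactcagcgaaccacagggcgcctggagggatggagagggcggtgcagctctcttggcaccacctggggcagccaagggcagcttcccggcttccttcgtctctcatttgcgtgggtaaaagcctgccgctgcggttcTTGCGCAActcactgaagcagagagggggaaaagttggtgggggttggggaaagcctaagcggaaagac
Tdo2: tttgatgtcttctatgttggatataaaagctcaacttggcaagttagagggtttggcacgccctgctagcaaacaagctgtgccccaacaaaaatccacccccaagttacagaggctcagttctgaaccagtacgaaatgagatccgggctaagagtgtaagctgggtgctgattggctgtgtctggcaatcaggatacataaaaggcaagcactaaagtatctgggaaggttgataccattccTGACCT

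The C/EBP motif stood in windows of 5 of the 20 genes, Cyp11a1, Dmkn, Erv3, Esr1 and Ptgs2, and in 9.56% of 32851 windows of all genes. The half-site stood in windows of 5, Alpl, Cnr1, Cyp11a1, Lifr and Tdo2, and in 14% of all windows. Of the 5 with the half-site, Cnr1 and Lifr were not lower at ED14.5. The match in Ptgs2 is the full C/EBP palindrome TTGCGCAA, found in 0.164% of all windows and in no other of the 20. The palindromic progesterone or glucocorticoid element GNACANNNTGTNC and the palindromic oestrogen element GGTCANNNTGACC stood in 0 of the 20, and in 0.387% and 0.0639% of all windows. In all 18 motifs were read on both strands, with the results of earlier comparisons known, and several overlap one another.

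Of the others, the GC box GGGCGG stood in windows of 13 of the 20 genes and in 32.7% of all windows, CCAAT in 10 and 33.8%, and the SMAD motif GGCGCC in 7 and 9.59%. TATAAA stood in 4 and 12.4%, the GATA motif AGATAA in 4 and 9.99%, the E-box CATCTG in 3 and 14.4%, and the hormone half-site TGTTCT in 2 and 16.1%. Windows of 1 gene each held TGACGT, found in 6.47% of all windows, the STAT motif TTCNNNGAA, found in 7.02%, CAAGGTCA, found in 1.33%, and CTTTGAT, found in 3.21%. The cyclic AMP element TGACGTCA and the forkhead motif GTAAACA stood in 0 of the 20 and in 1.55% and 3.17% of all windows. These are matches of letters in short windows, and with 20 genes no share was tested. The counts are of genes and the shares are of single windows. They are not like for like, since a gene with several windows has several chances of a match.

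The second question was whether the decidual genes differed between SL and control. The decidua is maternal tissue, and the part of the dam's RNA on the ED7.5 arrays was not tested. A comparison at ED7.5 can thus not be read as one of the grandoffspring's own RNA. At ED7.5, 0 of the 29 passed at an adjusted p below 0.05 in limma, where 0.00513% of all genes did, and 4 had an unadjusted p under 0.05, as did 1070 of all 19505 genes. The median difference, SL minus control, was 0.03 over the 29 and 0.00 over all genes. By role it was 0.04 for the hormone receptors and transcription factors (range -0.22 to 0.14), -0.01 for the signalling genes (range -0.25 to 0.17), 0.11 for the steroid and prostanoid genes (range -0.44 to 0.36), 0.03 for the structural genes (range -0.26 to 0.71) and 0.10 for the other markers (range -0.46 to 0.18). The ranges of the roles overlapped, and all 7 receptors and transcription factors lay within 0.22 of 0. Without the second control array 0 of the 29 passed as well, and the medians were 0.02, -0.03, 0.06, 0.07 and 0.13 in the same order of roles.

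The 3 genes with the smallest p at ED7.5 were all structural. Cryab was 0.71 ± 0.21 (SE) higher in SL (adjusted p = 0.760). All SL arrays lay at 12.37 or above, as did control replicate 1 at 12.46, while the other control arrays lay between 11.45 and 11.57. Without control replicate 1 the difference was 0.94 (adjusted p = 0.0819, the lowest of 15 alternatives, which ran up to 0.985), and without control replicate 2 it was 0.60 (adjusted p = 0.896). Lum was 0.47 ± 0.17 higher in SL (adjusted p = 0.835) and Dcn 0.32 ± 0.13 higher (adjusted p = 0.866), with the arms overlapping for both. Without the second control array Lum differed by 0.58 and Dcn by 0.32. The second SL array was the highest of all 8 for Lum and Dcn and the lowest for Htra1 and Erv3, and without it the difference was 0.36 for Lum, 0.24 for Dcn, -0.01 for Htra1 and -0.10 for Erv3, against -0.26 and -0.46 with it for Htra1 and Erv3.

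**Figure D4:**
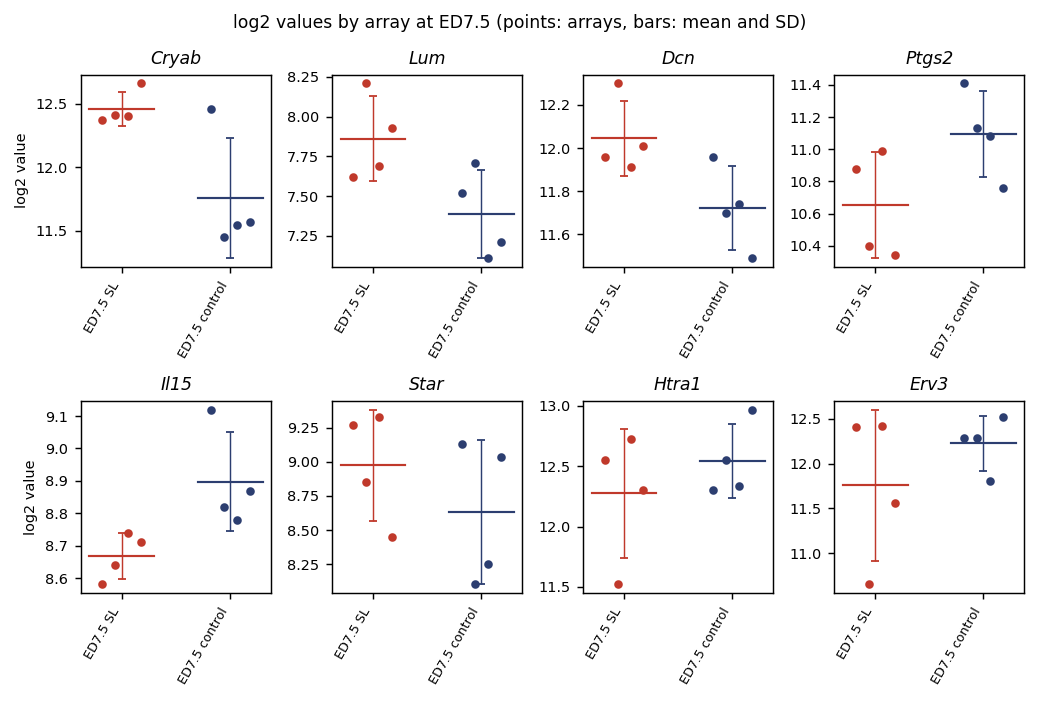
Log2 values (vertical axis, a scale for each gene) of 8 genes on the 4 ED7.5 SL arrays (red, left) and the 4 ED7.5 control arrays (blue, right), with bars for mean and SD. For Il15 alone of these 8 the arms do not overlap, and in Cryab control replicate 1 lies with the SL arrays.

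Il15 was the 1 gene of the 29 whose arms did not overlap at ED7.5, where 3.05% of all genes did not. It was -0.23 ± 0.11 (SE) in SL minus control (adjusted p = 0.913), and -0.25 without the second control array. The natural killer markers had a median difference of -0.08 (range -2.35 to 0.38), and 0 of 10 passed. The lowest was Klrb1c, at 2.94 ± 0.31 in SL and 5.28 ± 1.75 in control (SD), above background on no SL array and on 2 control arrays. Ptgs2 differed by -0.44 ± 0.19 (adjusted p = 0.880), and by -0.43 without the second control array, and its arms overlapped between 10.76 and 10.99. The decidual secretory genes had a median difference of -0.03, and 0 of 16 passed.

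At ED14.5, 0 of the 29 passed, where 0.0513% of all genes did, and 5 had an unadjusted p under 0.05, as did 2223 of all genes. In 2 of the 29, Ptgs2 and Fkbp5, the arms did not overlap, where 7.98% of all genes did not. Ptgs2 differed by -1.10 ± 0.17 (SE) in SL minus control (adjusted p = 0.0656), on arrays that were all below background, so that no level was measured. With an intensity trend in the variance model its adjusted p was 0.012, and over 14 alternatives it ran from there to 0.153.

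Fkbp5 was 0.38 ± 0.09 higher in SL at ED14.5, that is 1.30-fold, with all 4 SL arrays above all 4 control arrays (adjusted p = 0.160). It passed with an intensity trend (adjusted p = 0.0169) and with dim genes left out (adjusted p = 0.0363), and over 15 alternatives it reached 0.336. Esr1 differed by 0.61 ± 0.19 (adjusted p = 0.281), again below background on all 8 arrays. The median difference of the 29 at ED14.5 was 0.08, and 0.00 over all genes.

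In the PD7.5 livers 0 of the 29 passed and 0% of all 19505 genes did, while 3 of the 29 and 1543 genes in all had an unadjusted p under 0.05. In 2 of the 29 the arms did not overlap, Wnt6 and Des, where 4.43% of all genes did not. Wnt6 read 5.29, 5.08, 4.85 and 4.79 in SL and 4.53, 3.87, 4.00 and 3.93 in control, all below background, a difference of 0.92 ± 0.18 (SE, adjusted p = 0.509). Des read 5.19, 5.47, 5.56 and 5.43 in SL and 5.77, 5.85, 5.89 and 6.12 in control, above background on 2 control arrays, a difference of -0.49 ± 0.14 (adjusted p = 0.516). Lum read 8.16, 8.64, 8.25 and 8.65 in SL and 8.90, 8.61, 8.73 and 8.98 in control, with the arms overlapping, a difference of -0.38 ± 0.16 (adjusted p = 0.628).

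**Figure D5:**
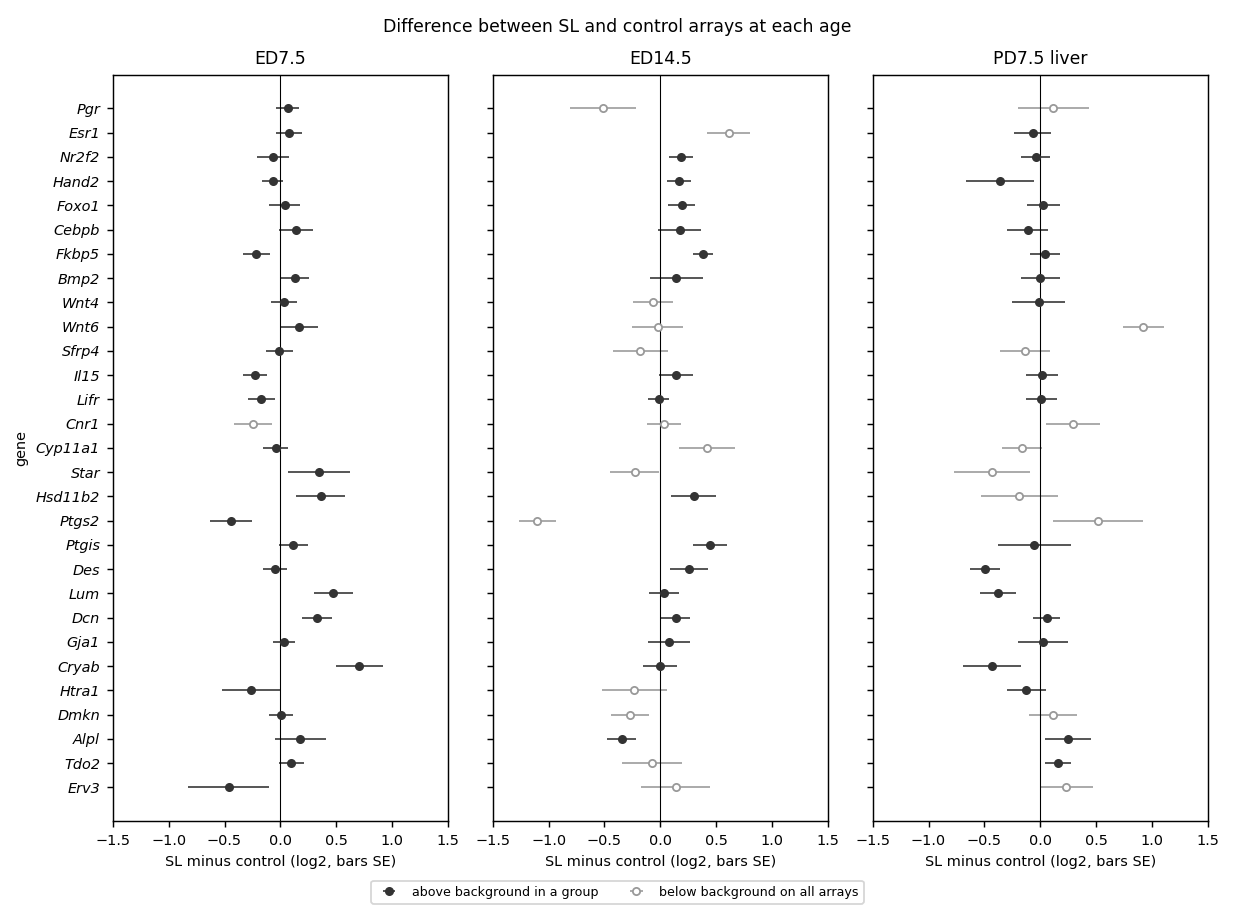
Difference of SL minus control on the log2 scale (horizontal axis) for 29 genes (vertical axis) at ED7.5, ED14.5 and in PD7.5 liver, with bars for SE. Open grey points are genes below background on all 8 arrays of the comparison. No gene passed at any age, and the differences furthest from 0 are Ptgs2 at ED14.5 (-1.10) and Wnt6 in liver (0.92), both open points.

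Whether the SL effect differed between ages was tested as an interaction over all 24 arrays. For ED14.5 against ED7.5, 0 of the 29 passed, where 0.0769% of all genes did, and for liver against ED7.5 again 0 of the 29, where 0.00513% of all genes did. Fkbp5, higher in SL at ED14.5 and lower on average at ED7.5, had an interaction of 0.60 (adjusted p = 0.204). Lum and Cryab, higher on average in SL at ED7.5 and lower in liver, had interactions of -0.85 (adjusted p = 0.262) and -1.14 (adjusted p = 0.292) for liver against ED7.5.

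Other genes of the same pathways were taken from lists, and none of them passed between SL and control at any age. Their counts at ED14.5 stand against 27.1% of all genes lower and 26.4% higher in SL, and 26.3% lower and 25.6% higher in control, and no list was tested against all genes. Of 16 measured genes of the progesterone and hedgehog axis, 10 were lower and 3 higher at ED14.5 than at ED7.5 in SL, and 9 were lower and 3 higher in control. Homeobox genes of the uterus were among the lower ones. Hoxa10 averaged 3.64 at ED14.5 and 12.12 at ED7.5 in SL, and 3.63 and 12.16 in control, at least 65.5-fold lower in SL and at least 65.2-fold lower in control. Hoxd10 was at least 24.8-fold lower in SL and at least 23.2-fold lower in control. Hoxa11 averaged 4.42 at ED14.5 and 11.41 at ED7.5 in SL, and 4.49 and 11.33 in control, below background on all ED14.5 arrays. The ligand Ihh and its target Gli1 were below background on all ED7.5 arrays of both arms, while the receptor genes Ptch1 and Smo were above it on all.

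Of 23 measured genes of the BMP, WNT and EGF axis, 17 were lower and 2 higher at ED14.5 in each arm. The ligand Bmp8a was at least 22.4-fold lower in SL and at least 22.3-fold lower in control. The ligand Wnt5a was at least 6.05-fold lower in SL and at least 5.35-fold lower in control. The activin antagonist Fst fell by 5.42 ± 0.18 (SE) in SL and 5.12 ± 0.24 in control. At ED14.5 Fst was above background on only 3 of 4 SL arrays and 2 of 4 control arrays, so the size of its fall is uncertain. Of 13 genes of the LIF, interleukin and STAT3 axis, 9 were lower and 3 higher in SL, and 10 lower and 3 higher in control. Osmr, the oncostatin receptor, was at least 14.1-fold lower in SL and at least 14.2-fold lower in control, and Il6st, the receptor subunit shared with Lifr, fell by 3.26 ± 0.12 and 3.04 ± 0.09. Lifr itself did not pass between these ages. Il11, the ligand of the receptor gene that had no probe set, was above background on all ED7.5 arrays and at least 3.10-fold lower at ED14.5 in SL and 3.06-fold lower in control.

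Of 26 measured genes of prostanoid and steroid handling, 10 were lower and 7 higher at ED14.5 in SL, and 9 lower and 4 higher in control, where the share of higher genes in SL lay near that of all genes. Ptges, the prostaglandin E synthase that works beside Ptgs2, was at least 22.0-fold lower in SL and at least 21.6-fold lower in control. Hsd17b2, which inactivates oestradiol, was at least 16.1-fold higher in SL and at least 15.3-fold higher in control. Hsd3b1, a hydroxysteroid dehydrogenase, averaged 9.51 at ED14.5 and 4.94 at ED7.5 in SL, at least 15.1-fold higher. In control Hsd3b1 averaged 9.68 at ED14.5 and 4.96 at ED7.5. Hsd11b1, which regenerates corticosterone, averaged 6.83 at ED14.5 and 11.12 at ED7.5 in SL, and 6.48 and 11.21 in control. The hepatocyte genes were higher at ED14.5 in 12 of 12 in both arms, and their part in the higher steroid genes was not tested.

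Decidual cells of the mouse become polyploid. Of 10 genes of that list and of the cell cycle, 5 were higher and 2 lower at ED14.5 than at ED7.5 in SL, and 5 higher and 3 lower in control. The cell cycle inhibitor Cdkn1a fell by 2.32 ± 0.11 (SE) in SL, and in control it averaged 9.36 at ED14.5 and 11.25 at ED7.5. The cyclin Ccne1 was 2.28 ± 0.10 higher in SL and 2.28 ± 0.10 higher in control. The securin Pttg1 was 2.01 ± 0.11 higher in SL and 2.04 ± 0.12 higher in control. The cyclin Ccne2 was 2.22 ± 0.10 higher in control, and in SL it averaged 9.98 at ED14.5 and 8.01 at ED7.5. The decidual secretory list was lower in 15 of 16 in both arms. Prl8a2, a prolactin-like hormone of the decidua, was at least 141-fold lower in SL and at least 146-fold lower in control. Its relative Prl3c1 was at least 70.5-fold lower in SL and at least 85.0-fold lower in control, and the thyroid hormone deiodinase Dio3 at least 53.4-fold lower in SL and at least 61.9-fold lower in control. The endothelial genes, too, were lower in 10 of 10 in both arms, with medians of -1.68 in SL and -1.57 in control. Emcn, a sialomucin of vessel walls, averaged 10.38 at ED7.5 and 6.27 at ED14.5 in SL, and 10.37 and 6.13 in control. Its ED14.5 means lay among the array backgrounds, so no size of the fall is given. Smooth muscle genes were lower in 8 of 10 in both arms, and uterine epithelial genes were higher in 5 and lower in 4 of 11 in SL and higher in 5 and lower in 6 in control.

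Between liver and ED7.5 the counts of the pathway lists stand against 30.2% of all genes lower and 21.2% higher in SL, and 29.7% lower and 20.2% higher in control. Of 16 progesterone and hedgehog genes 10 were lower and 3 higher in SL, and 7 lower and 3 higher in control. Hoxa10 was at least 68.9-fold lower in SL and at least 76.3-fold lower in control. Of 23 BMP, WNT and EGF genes 12 were lower and 4 higher in SL, and 11 lower and 3 higher in control, and Fst fell by 4.67 ± 0.26 (SE) in SL and 4.66 ± 0.19 in control. Of the 13 LIF, interleukin and STAT3 genes 8 were lower and 2 higher in each arm. Socs3, a feedback inhibitor of cytokine signalling, was at least 5.38-fold lower in SL and at least 5.03-fold lower in control, while Lifr was higher. Of 26 prostanoid and steroid genes 8 were lower and 7 higher in SL, and 8 lower and 8 higher in control, so that the share of lower genes lay near that of all genes. Hsd17b2 was at least 43.0-fold higher in SL and at least 40.9-fold higher in control. Among the polyploidy genes E2f8, a cell cycle repressor, fell by 2.35 ± 0.19 in SL and 2.02 ± 0.15 in control.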

How the data were processed

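The study measured total RNA of 24 samples on single-colour Affymetrix arrays, 1 array per sample. The deposited log2 values were made with RMA in the oligo package, per the submitters' processing notes, and the sources used here give no versions. Whether all arrays were normalized together is not stated. RMA forces arrays of different tissues to 1 distribution, which can shift values between ages. Of 29129 probe sets, 19572 named 1 gene. For 55 genes with several, the brightest was used, leaving 19505 genes. Each comparison was fitted on its 8 arrays with limma 3.58.1 in R 4.3.3 (lmFit and eBayes), with two-sided p-values and Benjamini-Hochberg adjustment over all genes. The interactions used all 24 arrays. The fitting was tested on simulated data. An array's background was the 75% point of its negative-control features. A dim group enters a fold at the background of its arrays, or at its own value where that is higher, and such folds are given as lower bounds. Tables were handled with Python 3.11.15, pandas 2.3.3 and numpy 2.4.6.

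The genes, lists, motifs and naming rule were chosen with earlier results of these data known. The rule gave values on every array for the 6 genes with the largest change in each direction at ED14.5 against ED7.5, for the 3 with the smallest p in each SL comparison, and for Pgr and Star. Il15 was given in full after its values were seen, as the gene whose arms did not overlap. Of each further list the rule took the 3 largest fitted differences, which below background carry no order, and any other list gene was picked with its values in view. Precision is limited by the number of arrays: over all named genes the median SE was 0.144, 0.143 and 0.187 in the SL comparisons at ED7.5, ED14.5 and in liver.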

Additional observations from a re-analysis of the deposited data

Results flagged for a closer look

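Within each group of 4 arrays, the highest and the lowest value of each gene above background on at least 1 array of the group was set against the rest by Dixon's ratio, the gap to the nearest array over the whole range. In 122 such tests 6 passed its 95% critical value, about what 1 in 20 by chance gives. Cryab passed in 3 groups. In ED7.5 SL replicate 4 was high at 12.66 (ratio 0.838), in ED7.5 control replicate 1 was high at 12.46 with the next at 11.57 (ratio 0.880), and in PD7.5 SL replicate 1 was low at 5.79, under that array's background of 5.89 (ratio 0.946). Des was high in ED7.5 SL replicate 1 at 12.60 (ratio 0.922). Cebpb was low in PD7.5 SL replicate 1 at 6.5 (ratio 0.904), and Nr2f2 was high in PD7.5 control replicate 2 at 10.53 (ratio 0.830).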

How the results depend on the processing

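The alternatives left out each array in turn or left out dim genes, used an intensity trend (with a robust prior), array weights, 1 fit over all 24 arrays, a replicate block or a further quantile normalization, or averaged a gene's probe sets. Among the 29 genes, no call between the ages changed direction. Between SL and control and for the interactions, 0 of the 29 passed as fitted, so no call could reverse there. The 29 decidual genes gave 0 calls between SL and control at ED7.5 and in liver in all 15 alternatives. At ED14.5 they gave 2 with the trend (Ptgs2 and Fkbp5) and 1 with dim genes left out (Fkbp5), and for the interaction at ED14.5 1 with the trend (Fkbp5, adjusted p = 0.0396). Over all genes, the count at ED7.5, 1 as fitted, was 3 with the trend, 12 with all 24 arrays and 0 to 2 with an array left out. At ED14.5, 10 as fitted, it was 283 with the trend, 79 with all 24 arrays, 174 with dim genes left out and 1 to 5 with an array left out. In liver, 0 as fitted, it was 5 with all 24 arrays. The interaction counts were 15 at ED14.5, 35 with the trend and 46 with array weights, and 1 in liver, 0 with array weights. The cause of these shifts was not tested. Same-numbered arrays deviated together little over all genes (correlations from -0.17 to 0.12), and the main fits did not pair them. Whether they share a litter or batch was not tested. With the replicate block the count at ED14.5 was 0, the liver interaction count 2, and the 29 genes again gave 0 calls between SL and control at each age.

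Between liver and ED7.5 the calls of Cnr1, Fkbp5, Lum and Ptgis in SL and of Hsd11b2 and Ptgis in control were lost under some alternatives, and those of Foxo1 in both arms and Dcn in control were gained. With the 90% point of the negative controls as background, 27 and 25 of the 29 lay above it on every array in ED7.5 SL and control, 7 and 7 at ED14.5, and 12 and 11 in liver. Levels below background carry no measured order.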
